A study of Mus musculus with 18 samples.

Results

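Homozygous mutant mouse embryonic fibroblasts were compared after 4 h of TGFb1 treatment with untreated fibroblasts of the same genotype. The comparison uses 4 of the 18 arrays of the series, taken by their labels: 2 arrays of untreated homozygous cells and 2 arrays of homozygous cells given 5 ng/mL TGFb1 for 4 h. The whole series holds 3 genotypes (wt, heterozygous and homozygous), each untreated or given the same dose for 4 h or 24 h, with 2 arrays in each of its 9 groups. All cells came from minced fetuses harvested at embryonic day 12.5 to 14.5, without head, liver and blood clots. The series title places the point mutation in TGFBR1, the design text names TGFb1, and the design text describes the mutant as constitutively active. The homozygous untreated cells therefore carry the same mutant protein as the treated ones. The sources used here do not say how many embryos or cultures stand behind an array, whether the untreated cells received the vehicle, or at which time untreated cells were taken.

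TGFb binds a pair of serine/threonine kinase receptors. The type II receptor phosphorylates the type I receptor, which in turn phosphorylates Smad2 and Smad3, and these enter the nucleus with Smad4. In fibroblasts the pathway is known for its effects on matrix production, contractility and secreted cytokines, and it also reaches MAP kinases and other routes that do not need Smads. Early targets include inhibitors of the pathway itself, such as Smad7, and transcription factors of the AP-1 family.

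Expression was read on an Affymetrix array, and every value below is a log2 of the deposited GCRMA intensity, so that a difference of 1 is a 2-fold change. A gene was called when limma's moderated test gave a Benjamini-Hochberg adjusted p under 0.05 over the 10078 genes tested. The replicate arrays were close: the root mean square SD over probe sets was 0.192 among the untreated and 0.196 among the 4 h homozygous arrays, against 0.379 and 0.387 in the matching wt groups. Array 1 of both homozygous groups had high Xist (11.88 untreated, 11.36 at 4 h), and array 2 of both had low Xist (1.58 and 2.68) with high Eif2s3y (10.78 and 10.82). The 2 arrays of a group are thus not repeats of 1 RNA, and both groups hold the same mix. The labels do not name separate cultures, and the p-values reflect no more than scatter between arrays. Each gene's spread was pooled over all 9 groups, the wt arrays included, and was not taken from the 4 homozygous arrays alone.

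The fibroblast label was checked against 10 marker genes, all of which were measured. Vim, Col1a1 and Col3a1 lay between 14.66 and 15.91 on all 4 arrays. Of these 10 markers 5 were called lower at 4 h (Col1a1, Col3a1, Pdgfra, Pdgfrb and Vim), and none was called higher. With any 1 array left out the adjusted p of Vim was 0.0619 to 0.11, and that of Col3a1 was 0.0641 without untreated array 2 and 0.0912 without 4 h array 1. All 12 macrophage markers were also measured, with Lyz2 between 11.88 and 12.22. Their summed linear intensity was 9953 and 10510 untreated and 13860 and 13870 at 4 h, although none of the 12 was called. The brightest markers weigh most in that sum, and single changes ranged from -1.07 for Mrc1 to 0.94 for C1qa. Of 8 endothelial markers 7 were dim, under log2 5, on all 4 arrays, and so were all 4 erythroid markers. The other endothelial marker, Emcn, read 9 and 8.55 untreated and 9.48 and 9.14 at 4 h and was not called. Of 15 skeletal muscle markers 8 were dim on all 4 arrays and 1 was called higher, Chrna1. Of 8 neural markers 5 were dim on all 4 arrays and 1 was called higher, Nes. The part of other cell types in the results below was not tested. In such bulk RNA, fewer cells of a type and less RNA per cell cannot be told apart.

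At 4 h, 3795 of 10078 genes were called (37.7%), 2029 of them higher (20.1%) and 1766 lower (17.5%). The shares of 20.1% and 17.5% are the background shares for the list and family counts below. Changes over 2-fold were called for 365 genes upward (3.62%) and 369 downward (3.66%). The median change over all genes was 0.0299; the normalization holds such a median near 0. The treated and untreated arrays did not overlap for 4287 genes with higher (42.5%) and 3757 genes with lower (37.3%) treated values. With any 1 array left out fewer of all genes were called, so list counts in those fits cannot be set against the background shares. The count over all genes depended on every array. It was 2290 without untreated array 1, 2298 without untreated array 2, 2163 without 4 h array 1 and 2513 without 4 h array 2.

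**Figure D1:**
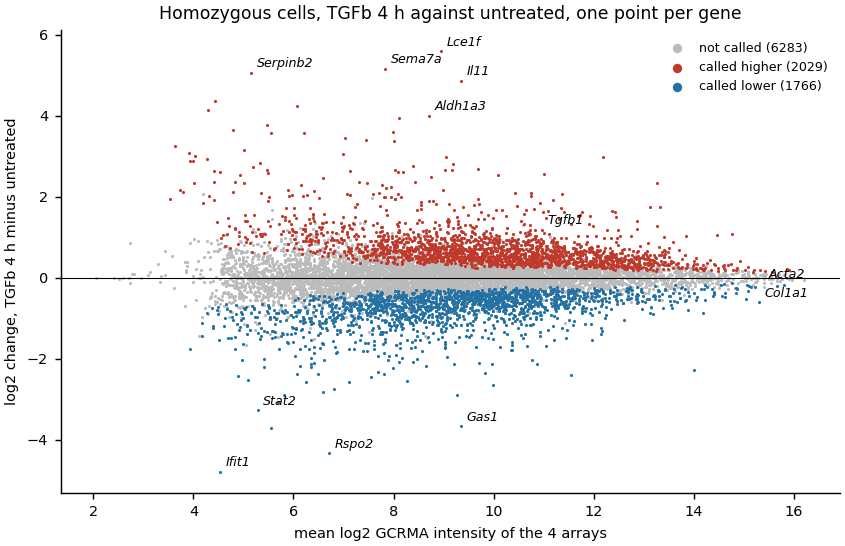
Log2 change at 4 h (y axis) against the mean log2 GCRMA intensity of the 4 homozygous arrays (x axis), 1 point per gene. Red points mark the 2029 genes called higher and blue points the 1766 called lower; the largest changes, such as Lce1f and Ifit1, lie at middle and low intensities, while bright genes such as Col1a1 moved by less.

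The strongest rise belonged to Lce1f, a late cornified envelope gene best known from skin. It read 6.14 and 6.16 in untreated arrays 1 and 2 and 11.85 and 11.63 in 4 h arrays 1 and 2, a rise of 5.59 ± 0.20 (SE, adjusted p = 8.27e-09). Its neighbour in function, Lce1h, read 6.95 and 7.05 against 9.73 and 9.79, and it is mentioned because these were the only 2 Lce genes measured; its probe set is of a type prone to cross-hybridization, so the readings may not be independent. Another epidermal gene, Crct1, moved from 5.73 and 6.65 to 9.64 and 9.94 (adjusted p = 1.22e-05). The arrays of these 3 genes of the cornified layer did not overlap between the groups, a condition for choosing Lce1f and Crct1. Over all genes tested, 42.5% had higher treated values without overlap. Among 8 epithelial markers, Cldn4 was called higher (2.53 on both untreated arrays, 6.31 and 4.78 at 4 h), while Cdh1, Krt5, Krt8 and Krt14 were dim on all 4 arrays. Krt18 read 10.09 and 9.76 untreated and 11.53 and 10.95 at 4 h, and Krt19 read 8.19 and 7.80 against 9.20 and 8.89; neither was called (adjusted p = 0.0797 and 0.0846), although their arrays did not overlap. Fitted on these 4 arrays alone the adjusted p was 0.00549 for Krt18 and 0.00565 for Krt19. The adjusted p of Cldn4 was 0.0241, and 0.092 without untreated array 1, 0.0924 without untreated array 2 and 0.18 without 4 h array 1. The summed intensity of the 8 markers was 1471 and 1183 untreated and 3730 and 2558 at 4 h, and its part in the rise of the Lce genes was not tested.

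Sema7a, a membrane-anchored semaphorin that binds integrins, rose from 5.25 and 5.26 to 10.24 and 10.59 (adjusted p = 8.02e-06). Prdm1, a transcriptional repressor, was dim untreated (2.23 on both arrays) and read 6.14 and 6.61 at 4 h, which is at least 2.59-fold higher. Such bounds compare the bright group with the dim level of log2 5 and are used wherever both arrays of a group lay under it. Olfm2, an olfactomedin-domain protein, rose from 4.23 and 4.63 to 7.93 and 8.07 and is at least 8-fold higher. The heart peptide gene Nppb rose from 5.19 and 5.38 to 8.90 and 8.59, and the placental growth factor Pgf from 5.81 and 5.68 to 9.24 and 9.04. No treated array overlapped an untreated one in these genes, which was a condition for choosing them.

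**Figure D2:**
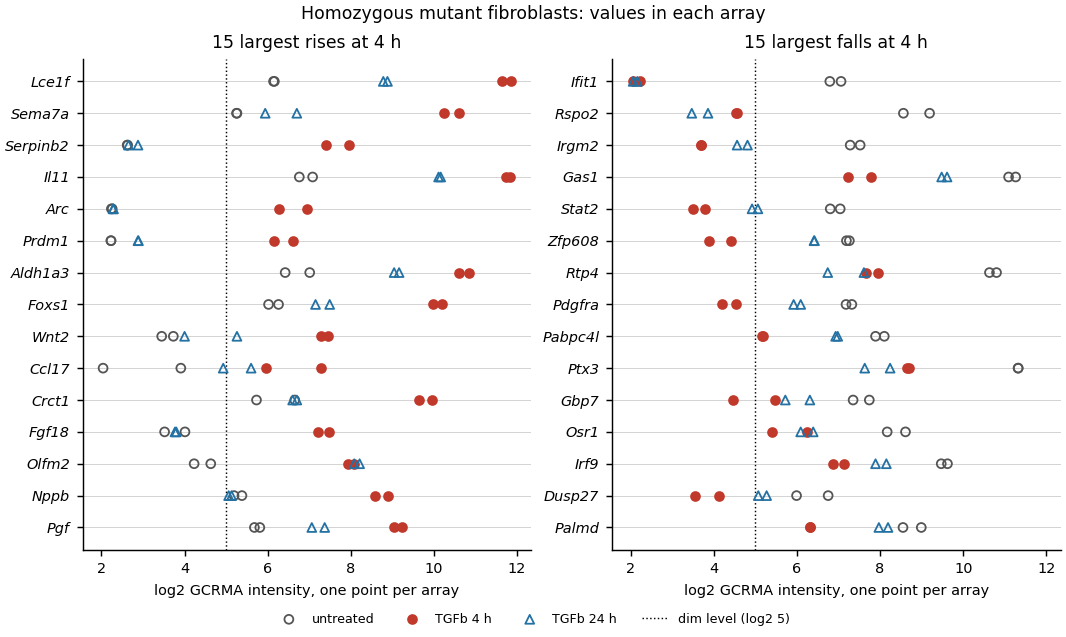
Log2 GCRMA intensity (x axis) in each homozygous array for the 15 largest rises (left) and the 15 largest falls (right) at 4 h; open circles are untreated, filled circles 4 h and triangles 24 h, and the dotted line is the dim level of log2 5. The 30 genes were chosen among called genes whose 4 h arrays do not overlap the untreated ones, so that gap is part of the choice. The 24 h points of Serpinb2, Arc, Fgf18 and Nppb are back beside the untreated points while those of Olfm2 are not.

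Within the TGFb pathway the ligand gene and several feedback genes rose. Of 15 measured ligands, latent binding proteins, receptors and Smads, 2 were called higher (Tgfb1 and Tgfbr1) and 5 lower (2 to 5 with any 1 array left out). Tgfb1, the ligand added to the medium, read 10.42 and 10.34 untreated and 11.58 and 11.54 at 4 h, a rise of 1.18 ± 0.10 (adjusted p = 7.92e-06). Tgfbr3, the betaglycan co-receptor, fell from 7.96 and 8.08 to 6.13 and 6.71 (adjusted p = 0.0124). That call was lost without untreated array 1 (0.051), without untreated array 2 (0.0663) and without 4 h array 1 (0.103). Tgfbr2, the type II receptor, fell by 0.72 (adjusted p = 0.00218), and Smad3, a signal carrier, fell by 0.54 (adjusted p = 0.00253). Other probe sets changed by -2.05 for Tgfbr2 and by -1.2 for Smad3. For Tgfbr1, the type I receptor, the brightest probe set rose by 0.43 (adjusted p = 0.00463), whereas its other 2 probe sets changed by -0.77 and -0.74, so its direction depends on the probe set.

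Among 25 measured Smad target and feedback genes 15 were called higher (60%) and 1 lower, Ski (named here after its value was seen), with a median change of 0.45. The adjusted p of Ski was 0.0102, and 0.0819 without untreated array 1 and 0.0865 without 4 h array 1. Sphk1, which makes sphingosine 1-phosphate, rose from 9.49 and 9.28 to 11.50 and 11.46 (adjusted p = 3.81e-06), and its other probe set changed by 0.75. Snai1, a repressor of epithelial genes, rose from 7.97 and 7.91 to 9.81 and 9.69 (adjusted p = 0.000925), and the AP-1 subunit Junb from 9.39 and 9.10 to 10.79 and 10.64. Smad7, the inhibitory Smad, rose from 10.81 and 10.71 to 11.74 and 11.51 (0.86 ± 0.21, adjusted p = 0.00751). Its adjusted p was 0.051 without untreated array 2 and 0.0673 without 4 h array 1. Skil, the SnoN corepressor, was not called: it read 12.15 and 12.12 untreated and 12.02 and 12.11 at 4 h, although a second probe set changed by 0.48. Ccn2, the connective tissue growth factor gene, lay at 15.62 and 15.69 untreated and 15.71 and 15.78 at 4 h and was not called either. It was among the brightest genes named here, and whether a rise could be read at that intensity was not tested.

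In the activin and BMP group, 5 of 21 measured genes were called higher and 5 lower (23.8% each), close to the background shares, and 1 to 3 were lower with any 1 array left out. The activin A subunit gene Inhba rose from 12.39 and 12.50 to 14.19 and 14.20 (1.75 ± 0.10, adjusted p = 5.65e-07). The activin B subunit gene Inhbb went the other way, from 9.58 and 10.18 to 7.75 and 8.57 (-1.72 ± 0.36, adjusted p = 0.00312). Fstl3, which binds and blocks activins, rose by 0.92. Id1, a helix-loop-helix inhibitor and standard BMP target, rose from 11.01 and 10.91 to 12.57 and 12.59 (adjusted p = 0.00318).

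Immediate early genes, which respond to growth signals without new protein synthesis, had the highest share called higher of the 35 lists: 16 of 24 (66.7%), with 1 lower and a median change of 1.17, or 0.65 with dim groups set to log2 5. Without any 1 of the 4 arrays, 13 were called higher and 0 lower. Arc, a cytoskeleton-associated early gene, was dim untreated (2.26 and 2.24) and read 6.28 and 6.94 at 4 h, at least 3.05-fold higher. Egr2 rose from 10.74 and 10.63 to 13.77 and 13.59, and the small Maf factor gene Maff from 7.72 and 7.67 to 10.42 and 10.30 (adjusted p = 3.29e-06). Nr4a3, an orphan nuclear receptor, was dim untreated (2.38 and 2.37) and read 5.41 and 5.52, at least 1.38-fold higher. Egr1 and Fos, 2 of the best known early genes, were not called at 4 h (both named after their values were seen). Egr1 read 11.88 and 11.75 untreated and 11.77 and 11.90 treated (adjusted p = 0.906). Fos read 9.84 and 9.75 against 9.30 and 9.50 (adjusted p = 0.0584). In 6 other settings Fos was called lower, such as after quantile normalization (adjusted p = 0.0401) and on these 4 arrays alone (adjusted p = 0.0185).

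Of 16 measured feedback regulators of MAP kinases 8 were called higher (50%). Dusp10, a phosphatase of JNK and p38, rose from 6.72 and 6.40 to 8.71 and 8.54, Dusp5 from 10.05 and 9.96 to 11.88 and 11.82, and Dusp4 from 9.95 and 9.94 to 11.66 and 11.63. Spry1, an inhibitor of receptor tyrosine kinase signalling, was the only gene of this list called lower. It read 10.03 and 10.07 untreated and 8.11 and 8.04 at 4 h, a fall of 1.97 on the log2 scale (adjusted p = 9.33e-06).

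Of 21 measured gp130 cytokines, receptors, Stat and Socs genes 7 were called higher (33.3%), 7 lower (33.3%) and 7 were not called. The genes with the larger rises encode cytokines that signal through the shared receptor gp130. Il11 read 7.08 and 6.76 untreated and 11.82 and 11.73 at 4 h, 28.9-fold higher (4.86 ± 0.28, adjusted p = 5.65e-07). Lif rose from 8.83 and 8.82 to 11.25 and 11.48, Il6 from 7.56 and 8.01 to 10.60 and 10.56, and Clcf1 from 7.77 and 8.05 to 10.12 and 10.01. Another such cytokine gene, Ctf1, was not called (-0.30). The 4 cytokine genes that rose had non-overlapping arrays, as did 42.5% of all genes in that direction. The adjusted p was 3.95e-06 for Lif, 0.00324 for Il6 and 0.000183 for Clcf1. Of the receptor genes, named here like Ctf1 after their values were seen, 3 fell: Il6st, which encodes gp130, by 1.43, Lifr by 1.39 and Osmr by 1.19 (adjusted p = 0.000526, 0.000439 and 0.000627). The cytokine-signalling inhibitor Socs2 rose from 9.43 and 9.24 to 10.94 and 11.06.

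Of 25 measured secreted growth factors 11 were called higher (44%) and 0 lower. Of 15 growth factor receptors 2 were called higher and 8 lower (53.3%). Vegfa, the vascular growth factor, rose from 9.72 and 9.73 to 12.26 and 12.30 (2.55 ± 0.13, adjusted p = 2.18e-07). Fgf2 rose from 6.91 and 6.86 to 9.26 and 9.72, and Pdgfb, which encodes a ligand of the PDGF receptors, from 5.83 and 5.77 to 8.51 and 8.37. Fgf18 was dim untreated (4.01 and 3.52) and read 7.20 and 7.47, at least 5.06-fold higher. Fgf21, a metabolic hormone gene, was also dim untreated (4.23 and 4.04) and read 6.73 and 6.85 at 4 h, at least 3.45-fold higher. It went on to 7.90 and 8.23 at 24 h. Pdgfra, the PDGF receptor alpha, fell from 7.32 and 7.18 to 4.53 and 4.19, at least 4.76-fold lower. Fgfr2 fell from 8.49 and 8.72 to 6.87 and 7.07 (adjusted p = 0.000251), Igf2r from 12.17 and 12.21 to 10.61 and 10.80, and the insulin receptor Insr from 8.85 and 8.90 to 7.72 and 7.83. With any 1 of the 4 arrays left out, 10 to 11 of these growth factors were called higher, and 0 to 1 of the receptors higher and 7 to 8 lower.

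Hedgehog signalling had no member called higher, and 7 of its 10 measured genes were called lower (70%; 5 with any 1 array left out). The background share called lower was 17.5%, and the list was chosen with earlier results of these data known. Gas1, a membrane protein that helps hedgehog ligands bind their receptor, fell from 11.26 and 11.09 to 7.22 and 7.79 (-3.67 ± 0.34, adjusted p = 1.22e-05), and its other probe set changed by -4.33. Gli2, a transcription factor of the pathway, fell from 9.12 and 8.85 to 6.83 and 6.39 (adjusted p = 1.34e-05). The receptor Ptch1, itself a target of the pathway, fell by 0.95, the signal transducer Smo by 0.68, and Disp1, which releases hedgehog ligands, by 1.10. Boc and Gli3 were also called lower, but with any 1 array left out their adjusted p was 0.0809 to 0.202 for Boc and 0.0529 to 0.104 for Gli3. Cdon, Kif7 and Sufu were not called, at -0.60, -0.48 and -0.24.

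Of 29 measured Wnt ligands, R-spondins, receptors, inhibitors and targets, 5 were called higher (17.2%) and 10 lower (34.5%), and 3 to 4 higher and 8 lower with any 1 array left out. Over all genes tested the shares were 20.1% higher and 17.5% lower. Wnt2 was dim untreated (3.73 and 3.45) and read 7.28 and 7.45 at 4 h, at least 5.15-fold higher. Wnt11 rose from 6.79 and 6.78 to 9.39 and 9.42 (2.62 ± 0.24, adjusted p = 1.43e-05). Rspo2, an R-spondin that strengthens Wnt signals, fell from 8.56 and 9.19 to 4.55 and 4.53, at least 14.7-fold lower. The Wnt receptor Fzd1 fell from 11.16 and 11.36 to 9.31 and 9.62 (adjusted p = 1.07e-05) and Fzd4 from 6.61 and 6.71 to 4.89 and 5.25. Of all 8 measured frizzled genes, a set chosen after the values were seen, 5 were called lower, 1 higher (0 to 1 with any 1 array left out), and the median was -1.03.

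Of 18 measured transcription factors and other patterning genes of limb and mesenchyme, 8 were called lower (44.4%), 1 higher and 9 were not called. Osr1, a zinc finger factor of lateral mesoderm, fell from 8.17 and 8.61 to 5.41 and 6.25 (adjusted p = 0.000119). Eya4 fell from 9.17 and 9.23 to 7.53 and 7.78, and Shox2, a limb homeobox gene, from 6.67 and 6.66 to 5.69 and 5.17. The exception was Meox1, a homeobox gene of somites, which rose from 6.97 and 6.45 to 9.33 and 9.38 (adjusted p = 0.000814). Of 20 genes on the list of Snail, Twist, Zeb and related transcription factors, 6 were called higher (30%) and 8 lower (40%). All genes tested had shares of 20.1% higher and 17.5% lower. The forkhead gene Foxs1 rose from 6.26 and 6.02 to 10.20 and 9.97 (3.94 ± 0.50). Foxd1 fell from 11.89 on both arrays to 10.08 and 10.32 (-1.68 ± 0.13, adjusted p = 5.69e-06) and Foxc1 by 1.35. Zeb2, often grouped with Snai1 as a repressor of epithelial genes, fell from 10.64 and 10.61 to 9.12 and 9.17. Of 35 axon guidance genes 11 were called lower (31.4%; 5 to 8 with any 1 array left out), led by the ephrin receptors Epha7 and Ephb3 (-1.66 and -1.62) and the Slit receptor Robo1 (-1.46), and Sema7a was their only member called higher.

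Of 12 measured retinoic acid genes 2 were called higher (Aldh1a3 and Crabp1), 3 lower (Rarb, Dhrs3 and Rarg) and 7 were not called, near the background shares. Aldh1a3, which makes retinoic acid, rose from 7.01 and 6.42 to 10.83 and 10.59 (adjusted p = 0.000551), and its other 2 probe sets changed by 1.03 and 3.52. Rarb, a retinoic acid receptor and target, fell from 6.30 and 5.93 to 3.32 and 4.04, at least 2.17-fold lower. Dhrs3, which turns retinaldehyde back into retinol, fell from 9.71 and 9.57 to 8.11 and 8.15 (adjusted p = 0.00013).

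Interferon-stimulated and interferon signalling genes had the lowest median of the 35 lists, -1.08 (-1 with dim groups set to log2 5), with 0 of 30 called higher and 13 lower (43.3%; 8 to 10 with any 1 array left out). Ifit1, an antiviral RNA-binding protein, read 7.06 and 6.79 untreated and 2.05 and 2.22 at 4 h, at least 3.80-fold lower (adjusted p = 0.000911). Stat2 and Irf9, which form the transcription factor that carries type I interferon signals, fell together. Stat2 fell from 6.80 and 7.04 to 3.80 and 3.49, at least 3.78-fold, and Irf9 from 9.47 and 9.62 to 6.86 and 7.13 (-2.55 ± 0.39, adjusted p = 0.000432). The GTPase gene Irgm2 fell from 7.52 and 7.28 to 3.70 and 3.69, at least 5.28-fold. Rtp4 (10.63 and 10.80 against 7.67 and 7.96) and Gbp7 (7.35 and 7.74 against 4.46 and 5.48) were called as well, with adjusted p of 0.0157 and 0.0141. Those of Rtp4 were 0.0612 without untreated array 1, 0.0758 without untreated array 2, 0.0838 without 4 h array 1 and 0.0544 without 4 h array 2. The call of Gbp7 was lost without untreated array 2 (0.0822) and without 4 h array 1 (0.115).

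Inflammatory mediators did not follow the interferon genes, with 8 of 24 called higher (33.3%) and 2 lower, against 20.1% and 17.5% of all genes. The chemokine Ccl20 rose from 9.01 and 8.56 to 10.77 and 10.46, and Tnfaip3, an inhibitor of NF-kB, from 7.69 and 7.99 to 9.66 and 9.80 (adjusted p = 3.36e-05). A second Tnfaip3 probe set changed by 1.03. Ptx3, a soluble pattern recognition protein, fell from 11.32 on both arrays to 8.65 and 8.69 (-2.65 ± 0.22, adjusted p = 6.68e-06), and the adhesion molecule Vcam1 from 11.38 and 11.02 to 9.63 and 9.48.

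**Figure D3:**
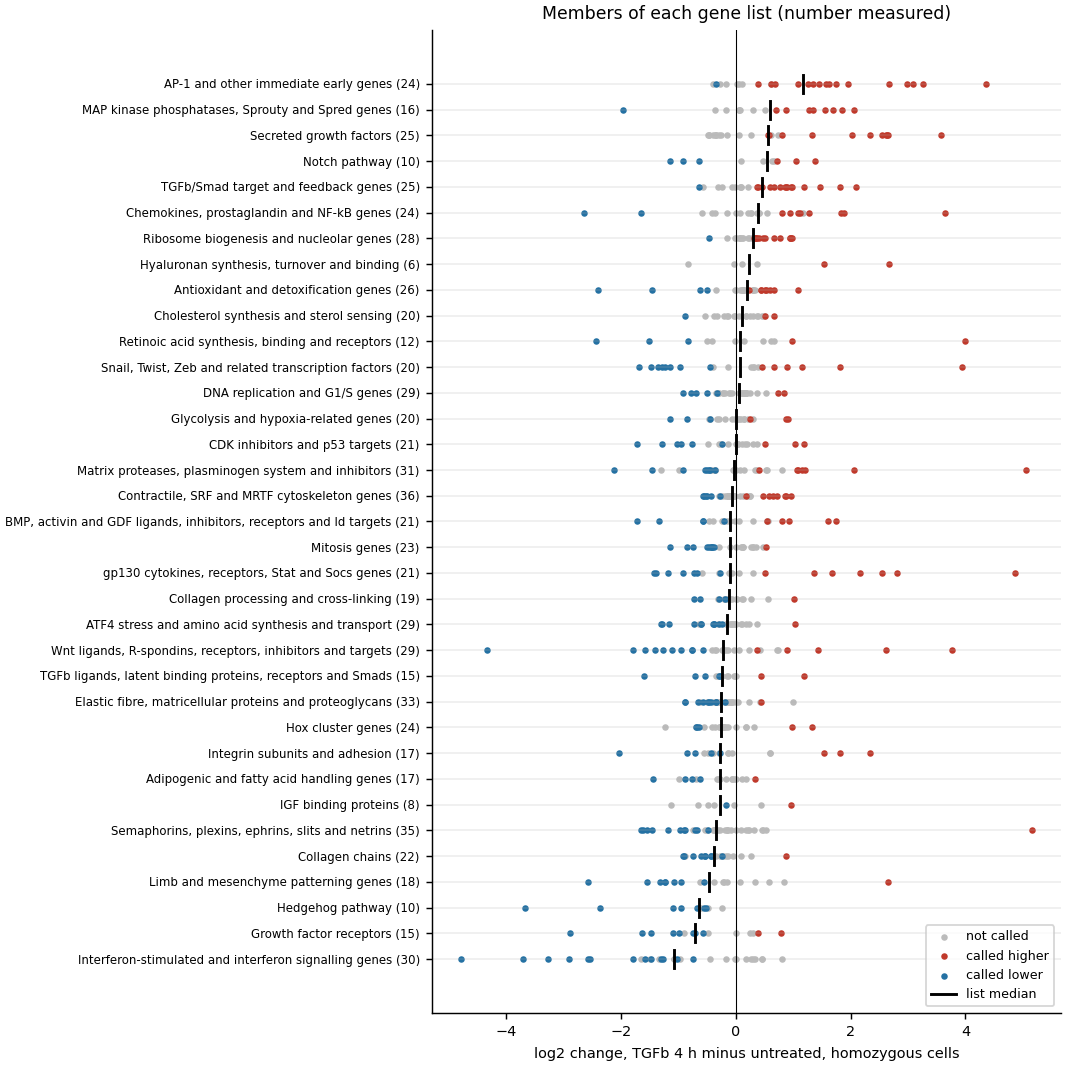
Log2 change at 4 h in homozygous cells (x axis) for each measured member of the 35 gene lists (y axis, number measured in brackets); red points were called higher, blue points lower and grey points not called, and black bars are list medians. The lists run from immediate early genes (median 1.17) at the top to interferon genes (median -1.08) at the bottom, and several lists, such as the gp130 and Wnt lists, hold large changes of both signs.

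Collagen genes, which encode the main fibres of the matrix, were lower or not called at 4 h, with 1 exception. Of 22 collagen chains 9 were called lower (40.9%; 2 to 5 with any 1 array left out) and 1 higher. Col1a1, the main collagen I chain, read 15.60 and 15.62 untreated and 14.89 and 15.11 at 4 h (-0.61 ± 0.11, adjusted p = 0.00107), and Col12a1 fell from 13.62 and 13.66 to 12.75 and 12.74. Col27a1 was the chain called higher, by 0.87; its adjusted p was 0.0612 without untreated array 1 and 0.0538 without 4 h array 2. Of 6 measured hyaluronan genes 2 were called higher and 4 were not called. The synthase Has2 rose from 11.13 and 11.19 to 12.56 and 12.84, and the hyaluronan-binding Tnfaip6 from 7.89 and 7.79 to 10.57 and 10.43 (adjusted p = 0.000124).

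Of 31 matrix proteases, plasminogen system genes and inhibitors 7 were called higher (22.6%) and 8 lower (25.8%), and 4 to 5 higher and 4 to 6 lower with any 1 array left out. Background shares were 20.1% higher and 17.5% lower. Serpinb2, an inhibitor of plasminogen activators, was dim untreated (2.63 and 2.62) and read 7.96 and 7.40, at least 6.42-fold higher. Plaur, the urokinase receptor, rose from 10.35 and 10.34 to 12.46 and 12.36 (adjusted p = 1.48e-05). Adamts1 fell from 10.59 and 10.40 to 9.07 and 8.99 (adjusted p = 0.00404). Of 17 integrin and adhesion genes 3 were called higher (17.6%) and 5 lower (29.4%; 3 to 4 with any 1 array left out). Itga5, the fibronectin receptor chain, rose by 1.53, Itgb3 by 1.81 and Cdh6 by 2.33. Other probe sets changed by 1.07 to 3 for Itga5, by 0.62 for Itgb3 and by 1.78 for Cdh6. Itgb8, which activates latent TGFb, fell from 5.89 and 6.11 to 3.65 and 4.28, at least 2.00-fold. Of 36 contractile and cytoskeletal genes 8 were called higher (22.2%) and 6 lower (16.7%), near the background shares, and 4 to 6 higher and 3 to 4 lower with any 1 array left out. Smtn and Ankrd1 rose by 0.96 and 0.85. Acta2, the smooth muscle actin gene, lay at 15.46 and 15.47 untreated and 15.28 and 15.38 at 4 h and was not called. Its other probe set changed by 0.47, and whether a rise could be read at such high intensity was not tested.

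Promoters are shown for 6 called genes in which a short motif was found, 3 that rose and 3 that fell. Sequences are RefSeq windows of GRCm38.p6 covering the 250 bases before the annotated start, all on the plus strand. The first 3 genes rose at 4 h, belong to different lists and hold the AP-1 motif TGACTCA or its reverse complement, in capitals. The windows lie at chr7:24462233-24462482 for Plaur, chr2:52037863-52038112 for Tnfaip6 and chr11:4257318-4257567 for Lif.
Plaur: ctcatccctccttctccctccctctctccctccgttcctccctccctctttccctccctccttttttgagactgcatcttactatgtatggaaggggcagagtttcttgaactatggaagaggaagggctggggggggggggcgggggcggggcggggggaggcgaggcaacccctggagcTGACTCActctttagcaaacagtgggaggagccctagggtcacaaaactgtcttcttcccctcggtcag
Tnfaip6: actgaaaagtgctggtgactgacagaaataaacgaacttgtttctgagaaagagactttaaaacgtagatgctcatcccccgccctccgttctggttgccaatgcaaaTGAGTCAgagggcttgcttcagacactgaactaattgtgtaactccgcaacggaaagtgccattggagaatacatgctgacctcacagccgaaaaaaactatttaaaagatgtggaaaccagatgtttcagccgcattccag
Lif: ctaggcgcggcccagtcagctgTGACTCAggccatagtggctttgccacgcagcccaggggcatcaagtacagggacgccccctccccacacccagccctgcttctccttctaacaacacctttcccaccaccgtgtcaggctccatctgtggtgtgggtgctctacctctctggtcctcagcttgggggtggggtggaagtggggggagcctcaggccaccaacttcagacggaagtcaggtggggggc

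The next 3 genes fell and belong to the interferon list. Capitals mark the interferon response motif (TTTC, any 2 bases, TTTC) or its reverse complement, which Ifit1 holds at 2 places. The windows are chr19:34640639-34640888 for Ifit1, chr11:58214727-58214976 for Irgm2 and chr10:128270248-128270497 for Stat2.
Ifit1: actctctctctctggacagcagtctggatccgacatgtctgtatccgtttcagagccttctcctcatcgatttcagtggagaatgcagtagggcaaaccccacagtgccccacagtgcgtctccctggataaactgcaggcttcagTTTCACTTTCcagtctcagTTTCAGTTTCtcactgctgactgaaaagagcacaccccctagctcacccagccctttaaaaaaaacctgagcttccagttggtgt
Irgm2: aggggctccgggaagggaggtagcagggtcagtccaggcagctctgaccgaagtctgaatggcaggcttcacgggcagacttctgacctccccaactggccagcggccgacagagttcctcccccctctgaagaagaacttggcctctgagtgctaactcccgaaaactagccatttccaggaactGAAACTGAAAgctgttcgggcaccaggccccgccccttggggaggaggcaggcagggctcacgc
Stat2: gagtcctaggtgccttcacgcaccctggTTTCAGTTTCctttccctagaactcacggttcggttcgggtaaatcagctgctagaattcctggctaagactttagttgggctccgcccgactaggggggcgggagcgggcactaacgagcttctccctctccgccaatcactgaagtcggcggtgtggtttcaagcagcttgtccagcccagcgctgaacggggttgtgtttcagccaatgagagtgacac

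The motifs were searched on both strands in the first listed window of each gene, and 8242 of the tested genes had one. The AP-1 motif was present in 25 of 278 windows (8.99%) of genes called over 2-fold higher, in 1 of 294 (0.34%) of those called over 2-fold lower, in 237 of 8242 (2.88%) of all tested genes, and in 4.43% of all 27025 windows. The Smad palindrome GTCTAGAC was in 0 windows of either group and in 0.218% of tested genes. The shorter Smad motif CAGAC was in 46.4% of the higher and 40.1% of the lower group, against 40.2% of tested genes. The cAMP response motif TGACGTCA, which does not contain the AP-1 motif, was in 2.88% and 2.04%, against 2.80%. The interferon motif was in 5 of 11 windows (45.5%) of list members called lower and in 7 of 16 (43.8%) of members not called, against 2.50% of tested genes, so within the list it did not go with the call. These shares describe letters in a window; binding was not measured.

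Several gene families were also counted by symbol, after their values were seen. The shares over all genes tested were 20.1% higher and 17.5% lower, and calls fell there too with any 1 array left out. Of 76 mitochondrial ribosomal protein genes 41 were called higher (53.9%) and 0 lower, with a median of 0.45, and 12 to 25 were called higher with any 1 array left out. Of 37 proteasome subunits 24 were called higher (64.9%; 9 to 13 with any 1 array left out) and 0 lower, with a median of 0.34. After quantile normalization the proteasome counts were 15 higher and 1 lower. Complex I genes of the respiratory chain had 21 of 42 called higher and 0 lower, and 5 to 9 higher with any 1 array left out. Ribosome biogenesis factors, which build ribosomes in the nucleolus, had 13 of 28 called higher (46.4%) and 1 lower, led by Rrp9 (8.08 and 7.97 against 9.01 on both 4 h arrays, adjusted p = 0.000426) and Ppan (8.54 and 8.40 against 9.50 and 9.37). Of 232 zinc finger genes named Zfp 25 were called higher (10.8%) and 56 lower (24.1%), and 14 to 16 higher and 31 to 36 lower with any 1 array left out. Zfp608 led them, falling from 7.26 and 7.19 to 3.89 and 4.42, at least 4.67-fold.

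Gene length differed between the genes called in either direction. The median genomic length was 13.5 kb for genes called higher, 49.0 kb for genes called lower and 24.7 kb for all genes tested. For changes over 2-fold the medians were 14.5 kb and 54.2 kb. Genes called at 4 h had medians of 14.5 kb and 43.0 kb in wt cells and 14.1 kb and 45.7 kb in heterozygous cells, whereas those called in homozygous cells at 24 h against untreated had 28.0 kb and 31.9 kb. The 24 h comparison shares the untreated arrays with the 4 h one. As a measure of RNA integrity, the ratio of the 3' to the 5' control probe set of Actb was 1.25 and 1.23 untreated and 1.16 and 1.20 at 4 h, and that of Gapdh was 0.788 and 0.762 against 0.717 and 0.735. The same ratio for Tfrc, a less abundant transcript, was 2.34 and 2.38 untreated and 3.50 and 2.76 at 4 h, and its part in the length difference was not tested.

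**Figure D4:**
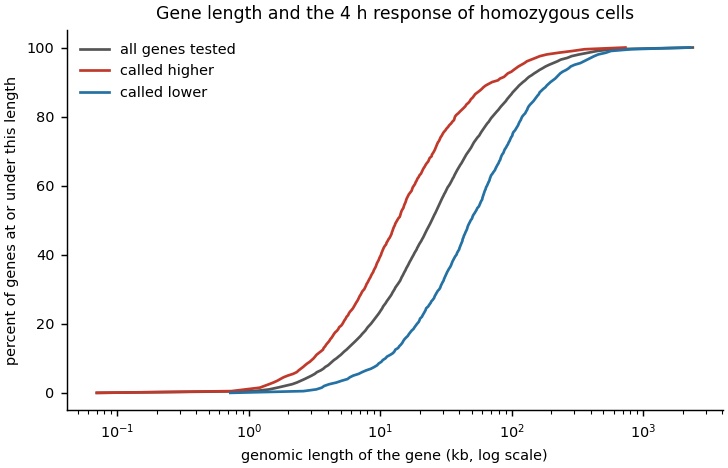
Share of genes (y axis, percent) at or under a genomic length (x axis, kb, log scale) for all genes tested (grey), genes called higher (red) and genes called lower (blue) at 4 h in homozygous cells. The red curve reaches 50% at 13.5 kb, the grey curve at 24.7 kb and the blue curve at 49.0 kb.

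Whether the homozygous response at 4 h differed from that of the other genotypes was tested as an interaction, with no arrays shared between the 2 responses. Against wt cells 0 of 10078 genes were called (0%) by limma, with 847 at an unadjusted p under 0.05 (8.4%) and a smallest adjusted p of 0.0635. Against heterozygous cells 0 were called, with 157 at an unadjusted p under 0.05 (1.56%), in a fit whose spread was pooled with the wt arrays. On mutant arrays alone limma again called 0, with 556 under that unadjusted p. With a replicate block within genotype added, a setting chosen after seeing the data, it called 0 with 989 under it. The wt arrays weighed on the first result: 46 genes were called without untreated wt array 1 and 157 without 4 h wt array 1. The median SE of an interaction was 0.222. On their own, 2108 genes were called in wt (20.9%) and 2904 in heterozygous cells (28.8%); the interactions called no single gene.

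Across genes, homozygous changes regressed on wt changes through 0 had a slope of 1.03 (Pearson r = 0.865) and on heterozygous changes a slope of 1 (r = 0.933); genes are not independent replicates, and these values are descriptions. Il11 changed by 4.86 in homozygous, 4.19 in wt and 4.56 in heterozygous cells, and the difference from wt was 0.66 ± 0.39 (adjusted p = 0.668). Gas1 changed by -3.67, -3.23 and -3.72. Id1 changed by 1.61 in homozygous, 0.59 in wt and 0.83 in heterozygous cells, with a difference from wt of 1.03 ± 0.49 (adjusted p = 0.599). Ifit1 was dim on both homozygous 4 h arrays, so no size is given for its difference between genotypes; its interaction with wt was not called (adjusted p = 0.559).

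**Figure D5:**
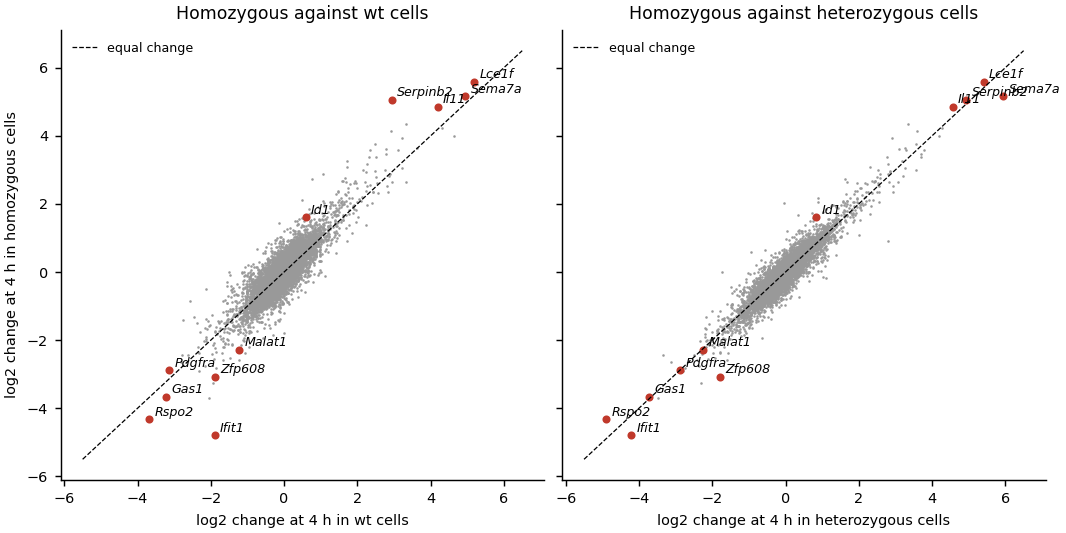
Log2 change at 4 h in homozygous cells (y axis) against the change in wt (left) and heterozygous cells (right, x axes), 1 point per gene; the dashed line marks equal change and red points are named genes. Most points lie along the line, and Ifit1 lies below it in the wt panel, where its interaction was not called; its homozygous 4 h arrays were dim, so its position on the y axis is a fitted value.

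Many genes moved again between 4 h and 24 h. Of 10078 genes 3722 were called (36.9%), 1506 higher (14.9%) and 2216 lower (22%) at 24 h; this comparison shares the 4 h arrays with the first. Its count was 2054 without 4 h array 1, 2422 without 4 h array 2, 2187 without 24 h array 1 and 2101 without 24 h array 2. Against untreated cells 867 genes were called at 24 h (8.6%), and 5.51% of all genes were called lower. Of the 24 immediate early genes 21 were called lower at 24 h than at 4 h: Arc was back at 2.29 and 2.28, and Fosb, which had read 4.79 and 5.75 at 4 h, at 2.04 and 2.03. Il11 read 10.11 and 10.16 at 24 h, lower than at 4 h, while Tgfb1 stayed at 11.46 and 11.55 and Olfm2 at 8.08 and 8.21. The difference between 24 h and 4 h was -1.64 for Il11 (adjusted p = 0.000811), -0.05 for Tgfb1 (adjusted p = 0.722) and 0.14 for Olfm2 (adjusted p = 0.747).

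A separate set of genes was highest or lowest at 24 h. Rarb, which had fallen at 4 h, read 7.39 and 7.40 at 24 h (adjusted p = 3.86e-06 against 4 h). The cannabinoid receptor Cnr1 read 4.70 and 4.77 untreated, 3.57 and 3.66 at 4 h and 7.32 and 7.37 at 24 h. Abcb1a, a drug efflux pump, was dim on all untreated and 4 h arrays and read 7 and 7.46 at 24 h. In the other direction, Ccn3, a matricellular protein, read 8.91 and 8.81 untreated, 8.73 and 8.60 at 4 h and 4.50 and 4.71 at 24 h (adjusted p = 0.000307 against 4 h). All 23 mitosis genes were called lower at 24 h than in untreated cells, while at 4 h 9 were called lower and 1 higher, led by Mki67 (11.22 and 11 untreated, 9.94 and 10.01 at 4 h). Without any 1 of the untreated or 4 h arrays, 1 to 9 of them were called lower at 4 h. Of the 30 interferon genes 13 were called lower at 24 h than in untreated cells.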

How the data were processed

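RNA of mouse fibroblasts was labelled for 18 Affymetrix arrays. The authors deposited 1 table of linear intensity values for 45101 probe sets, made with GCRMA per the submitters' processing notes; further settings are not stated in those notes. GCRMA estimates background from probe sequence and quantile-normalizes arrays, so dim probe sets are pulled to a common low value and a shift of the whole transcriptome would not show. The precision is limited by the number of arrays, 2 a group.

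Values were taken to log2, and the deposited intensity of a probe set was used where it reached log2 5 on at least 2 of 18 arrays. Of 34945 probe sets with 1 symbol in the platform annotation (932 had several, 9160 none), 17442 passed; the brightest of each gene was kept, giving 10078 genes. limma 3.58.1 in R 4.3.3 was fitted with 1 mean for each of the 9 groups over all 18 arrays (9 residual degrees of freedom) and an intensity trend; tests are 2-sided. Scripts were tested on simulated data. Named genes are the 15 largest rises and 15 largest falls among called genes whose treated arrays do not overlap the untreated ones. Also named are up to 5 called members per list (any member of lists with 12 or fewer) and a few key pathway genes. Up to 6 genes each way come from the other comparisons. Other genes are marked as named after their values were seen. Genes and the 35 lists were chosen with earlier results of these data known. Gene lengths, symbols and promoters come from RefSeq (GRCm38.p6). Alternatives were another filter, probe set rule, normalization, prior, weights, sample choice and replicate block, and leaving out each array.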

Additional observations from a re-analysis of the deposited data

Results flagged for a closer look

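Skil, which encodes a corepressor of Smads, lay on opposite sides of its untreated arrays at 4 h in 2 genotypes. In homozygous cells its log2 change at 4 h was -0.07 (SE 0.09, adjusted p = 0.579), which was not called. The treated arrays read 12.02 and 12.11 against 12.15 and 12.12 untreated. In wt cells the change was 0.43, which limma called higher (adjusted p = 0.00582). In each genotype the treated arrays did not overlap the untreated ones. Among homozygous arrays that held for 42.5% of all genes with higher and 37.3% with lower treated values. The difference between the genotypes was -0.50 ± 0.13 by limma's interaction, with an adjusted p of 0.491, so it was not called. In heterozygous cells the change was -0.09. A second Skil probe set changed by 0.48 in homozygous cells.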

How the results depend on the processing

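The 3795 calls at 4 h stayed within 1.5 times of that number under 12 other settings. These changed the filter, probe set rule, normalization, added value, prior, samples or block. The calls ran from 3273 without a filter to 5522 on only the groups compared. On homozygous arrays alone, a setting chosen after seeing the data, they were 5666. They were 5860 with array weights, 2163 to 2513 with 1 array left out, and, in a setting chosen after seeing the data, 6064 on mutant arrays alone with a replicate block within genotype. Calls between 24 h and 4 h were 3722, and 5723 with array weights, 2054 to 2422 with 1 array left out, and, both chosen after seeing the data, 5676 on homozygous arrays alone and 6030 on mutant arrays with the replicate block. The difference from wt called 4 genes without a filter, 1 each after quantile normalization, with equal array medians and with a replicate block over all genotypes, and 0 to 157 with 1 array left out. The difference from heterozygous cells called 3 without a filter. The cause of these shifts was not tested. Tgfbr1 reversed to -0.36 (adjusted p = 0.23) with the mean of its probe sets. Of 1915 recomputed values of 129 genes under settings that kept all 4 arrays compared, 1875 kept their side of the threshold. A further 6 lost the call and 33 gained it. Direction was not compared where neither fit called the gene. The labels do not say that replicate numbers pair arrays; same-numbered homozygous deviations correlated at 0.61 between untreated and 4 h, and a replicate block within genotype gave 3860 calls. Among wt arrays the same correlation was -0.492, and crossing those numbers gave 0 calls against wt. Genes under log2 5 in a group have only a bound.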

Other observations

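Of 29 measured amino acid transport, synthesis and ATF4 stress genes 11 were called lower at 4 h in homozygous cells (37.9%). A further 1 was called higher and 17 were not called, with a list median of -0.16. The share called lower over all genes tested was 17.5%. Slc1a4, a neutral amino acid transporter, read 9.62 and 9.72 untreated and 8.33 and 8.40 at 4 h (-1.31 ± 0.16, adjusted p = 0.000117). Trib3, a pseudokinase induced by ATF4, read 10.21 and 10.26 against 8.91 and 9 (-1.28 ± 0.18, adjusted p = 0.000241). The stress-response gene Sesn2, of the list of CDK inhibitors and p53 targets, fell from 9.89 and 9.91 to 8.21 and 8.14 (-1.73 ± 0.32, adjusted p = 0.00131), and its other probe set changed by -0.48. At 24 h all 3 had returned to between 9.67 and 10.39. With any 1 array left out 5 to 6 members of the amino acid list were called lower.

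Among antioxidant and detoxification genes 8 of 26 were called higher (30.8%) and 4 lower, and 2 to 5 and 2 to 3 with any 1 array left out. With all arrays, 20.1% of all genes tested were called higher and 17.5% lower. Cyp1b1, a cytochrome P450 of fibroblasts, fell from 12.81 and 12.68 to 10.12 and 10.57 (-2.40 ± 0.17, adjusted p = 3.29e-06). Hmox1, the inducible heme oxygenase, rose from 10.44 and 10.71 to 11.58 and 11.73 (1.08 ± 0.16, adjusted p = 0.00031) and read 10.43 and 10.70 at 24 h.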
